A study of Mus musculus with 6 samples.

Results

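The angiopoietin and Tie genes are a small signalling group of the vessel wall. The 7 genes described here were Angpt1, Angpt2, Tek, Tie1, Angptl2, Angptl4 and Ptprb, taken by symbol from a table of 54429 genes. RNA-seq covered 6 libraries of primary aortic endothelial cells (EC) from adult wild-type C57BL/6 mice, 3 transduced with a vector that overexpresses Meis1 (Meis1-OE) and 3 with a control vector carrying YFP (YFP-CTRL). All 6 cultures therefore carried a vector, were exposed to it for 48 h, were sorted as YFP+CD31+VEC+ cells at 72 h and were then re-plated and grown to confluency, so the cells measured had divided in culture after transduction. The libraries are named here by the letters A, B and C of the deposited table, and 3 values given for a condition are in that order.

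Tek encodes Tie2, the receptor tyrosine kinase that binds angiopoietins on EC, and Tie1 encodes a related receptor that forms complexes with it. Angiopoietin-1, made mainly by perivascular cells, activates Tie2 and keeps vessels quiescent, whereas angiopoietin-2, made by EC themselves, is a context-dependent antagonist of the same receptor. Ptprb encodes VE-PTP, an endothelial phosphatase that removes phosphate from Tie2. Angptl2 and Angptl4 are secreted proteins that resemble angiopoietins but do not bind Tie2, and Angptl4 is known as an inhibitor of lipoprotein lipase.

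Tek fell and Angptl2 rose in Meis1-OE EC. Tek dropped to 58.2% of its level in YFP-CTRL EC, while Angptl2, almost uncounted in YFP-CTRL EC, was 16.5-fold higher with Meis1. Angptl2 had 10 counts in the 3 YFP-CTRL libraries together and entered the test through its Meis1-OE libraries alone, so its call and the counts of members below are given as a description. Tie1, Ptprb, Angpt2 and Angptl4 did not pass the test, and Angpt1 was at the limit of detection in both conditions. The comparison was made with edgeR's quasi-likelihood test over 16065 genes with Benjamini-Hochberg adjustment and a threshold of 0.05, and log2 fold changes (log2FC) are for Meis1-OE over YFP-CTRL, with their standard errors (SE). Of the 6 members tested, 2 were called, beside 6.87% of all genes. By direction, 1 was higher, beside 4.14% of all genes, and 1 was lower, beside 2.73% of all genes. DESeq2 called the same 2 genes, beside 12.4% of the genes to which it gave an adjusted p, with adjusted p-values of 0.00245 for Tek and 5.04e-08 for Angptl2. The libraries of the conditions did not overlap for 2 of the 6 members, beside 33.1% of all genes. The median log2FC was 0.01 over the 6 members and 0.01 over all genes tested.

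Between 34176592 and 47956569 reads were counted per library. Meis1 was at 39 to 85 counts in YFP-CTRL EC and 135325 to 157828 counts in Meis1-OE EC. YFP-CTRL libraries were less alike than Meis1-OE libraries. A proliferation score, the mean log2(CPM + 1) of 15 cell cycle genes, was 4.31, 5.29 and 6.52 in YFP-CTRL EC and 6.53 to 6.60 in Meis1-OE EC, so only YFP-CTRL library C was close to the Meis1-OE libraries. In bulk libraries, fewer cells of a type and less RNA per cell cannot be told apart.

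Promoters are shown for 3 of these genes, the only members for which the source used held one. They belong to the gene that rose, the gene that fell and the related receptor that did not pass the test. Sequences are from RefSeq on build GRCm38.p6, the assembly behind the mm10 build that the labels name, and run 5′ to 3′ along the gene up to the base before its annotated span. Capitals mark GGAA, the core of ETS factor sites, or its reverse complement TTCC.
Angptl2: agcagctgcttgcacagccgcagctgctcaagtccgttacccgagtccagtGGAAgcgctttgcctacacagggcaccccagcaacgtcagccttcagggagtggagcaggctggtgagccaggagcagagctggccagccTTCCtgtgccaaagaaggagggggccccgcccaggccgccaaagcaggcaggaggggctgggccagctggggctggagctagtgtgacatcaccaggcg
Tek: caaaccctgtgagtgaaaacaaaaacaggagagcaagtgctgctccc
Tie1: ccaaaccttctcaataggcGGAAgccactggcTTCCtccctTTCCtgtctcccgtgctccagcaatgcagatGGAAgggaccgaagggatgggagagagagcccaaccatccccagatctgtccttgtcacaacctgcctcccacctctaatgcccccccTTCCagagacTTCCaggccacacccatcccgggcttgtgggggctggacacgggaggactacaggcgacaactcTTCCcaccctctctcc
These windows lie at chr2:33215711-33215950 (plus strand), chr4:94739039-94739085 (plus strand) and chr4:118489850-118490099 (minus strand). The Tie1 window holds GGAA or TTCC 7 times and the Angptl2 window 2 times. Of 32851 promoters, 93.4% hold this motif in 250 bases and 92.7% in 240 bases, so its presence is common. The Tek window is only 47 bases long, because the start site used in the promoter table lies inside the annotated span of Tek and only bases before that span are printed. It holds none, as against 39.9% of promoters with it in that length. These 47 bases are the upstream ones farthest from the start site used, and the bases nearer to that site were not searched. TGACAG, the core sequence bound by Meis factors, was searched on both strands and is not in these letters, and 15.9% of promoters hold it in 250 bases, 15.3% in 240 bases and 2.93% in 47 bases. TGATTGAT, a site of Pbx-Hox complexes, is likewise not in these windows and is held by 0.67%, 0.664% and 0.143% of promoters in windows of those lengths.

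Tek lies on chromosome 4 at 94739086 to 94874976. It was counted 1769, 2107 and 2381 times in Meis1-OE EC, and 2246, 3678 and 3558 times in YFP-CTRL EC. In TMM-normalized CPM (counts scaled to a common library size) these were 38.7, 46.4 and 51.4 in Meis1-OE EC and 66.1, 90.2 and 78.3 in YFP-CTRL EC. Every Meis1-OE library was below every YFP-CTRL library, and the gap between the nearest libraries was that from Meis1-OE library C to YFP-CTRL library A. The means were 45.5 ± 6.41 CPM and 78.2 ± 12.0 CPM (SD, n = 3 each), a log2FC of -0.78 (SE 0.16, edgeR adjusted p = 0.0351). The log2FC stayed between -0.91 and -0.64 over 14 alternative fits, including -0.90 when the proliferation score was a covariate (edgeR adjusted p = 0.0478). Tek no longer passed without Meis1-OE library A, B or C or without YFP-CTRL library B, where the edgeR adjusted p was 0.124, 0.173, 0.109 and 0.112.

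Tie1 also lies on chromosome 4, at 118471191 to 118489849, and was the most abundant member per length. It was at 424, 498 and 590 CPM in Meis1-OE EC and at 446, 555 and 435 CPM in YFP-CTRL EC. The ranges overlapped, with the lowest and the highest value both in Meis1-OE EC. The log2FC was 0.07 (SE 0.16, edgeR adjusted p = 0.809), and it was below 0 without Meis1-OE library C or YFP-CTRL library C.

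Ptprb, on chromosome 10 at 116275502 to 116389538, was at 352, 372 and 396 CPM in Meis1-OE EC and at 385, 475 and 441 CPM in YFP-CTRL EC. Only YFP-CTRL library A fell within the range of the Meis1-OE libraries. Its log2FC was -0.22 (SE 0.12, edgeR adjusted p = 0.291), and the value was negative in 14 of 14 alternatives without passing in any of them.

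**Figure D1:**
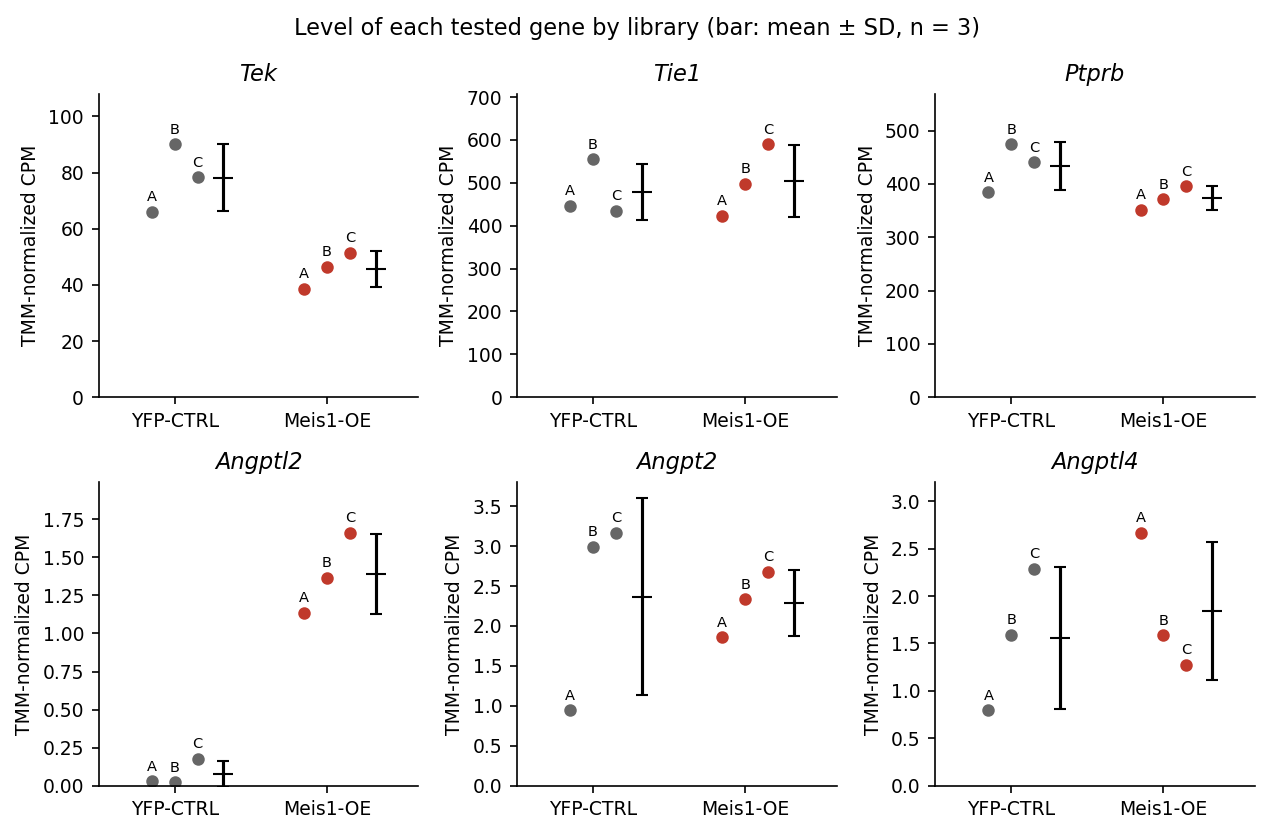
TMM-normalized CPM (y axis, from 0) of the 6 tested genes in each YFP-CTRL (grey) and Meis1-OE (red) library, with the library letter above each point and the mean ± SD (n = 3) beside it. The conditions separate for Tek and Angptl2, and they overlap for Tie1, Ptprb, Angpt2 and Angptl4.

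The ratio of counts of a pair of genes within a library does not depend on how libraries are scaled, and it was used to set Tek beside its partners. Counts of Tie1 were 10.9, 10.7 and 11.5 times those of Tek in Meis1-OE EC, and 6.75, 6.15 and 5.55 times in YFP-CTRL EC. The ratio was higher in all 3 Meis1-OE libraries, by 0.85 on the log2 scale, which is 1.80-fold. Its means were 3.47 ± 0.05 and 2.62 ± 0.14 on the log2 scale (SD, n = 3 each). Ptprb counts were 9.10, 8.01 and 7.71 times those of Tek in Meis1-OE EC and 5.82, 5.27 and 5.63 times in YFP-CTRL EC, a difference of 0.57 on the log2 scale. The ratio of Angpt2 to Tek was 0.0480, 0.0503 and 0.0521 in Meis1-OE EC and 0.0142, 0.0332 and 0.0405 in YFP-CTRL EC, a difference of 0.91 that was 0.45 without YFP-CTRL library A. Each of these 3 ratios gave p = 0.1 in a two-sided exact permutation test, the smallest that 3 libraries against 3 allow, so none could pass 0.05. All 3 have Tek as the denominator, so they are not independent of each other or of the lower Tek level. Ratios of Angpt2 to Angpt1 and of Angptl4 to Angptl2 were not computed because a count of the second gene was at or under 3.

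**Figure D2:**
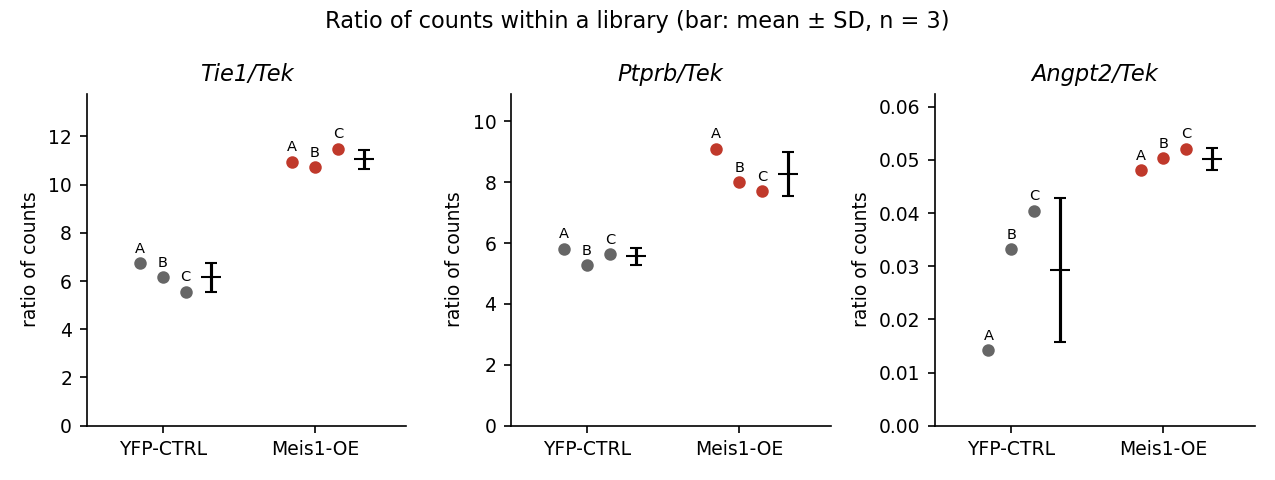
Ratio of counts within each library (y axis, from 0) for Tie1 over Tek, Ptprb over Tek and Angpt2 over Tek, in YFP-CTRL (grey) and Meis1-OE (red) EC, with the mean ± SD (n = 3). All 3 ratios, which share Tek as the denominator, are higher in every Meis1-OE library, and YFP-CTRL library A is the lowest for Angpt2 over Tek.

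The ligands of Tie2 were sparse in these cells. Angpt1, on chromosome 15 at 42424667 to 42676977, had 1 count in Meis1-OE libraries A and C and 0 in Meis1-OE library B and all YFP-CTRL libraries. A count of 0 allows up to 3 counts, which is 0.0660 to 0.0883 CPM in the YFP-CTRL libraries, so a difference was not detectable at this depth and Angpt1 was not tested. Such floors, and the counting intervals below, describe counting error alone, because PCR copies were not marked by molecular identifiers.

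Angpt2, on chromosome 8 at 18690263 to 18741562, was counted 85, 106 and 124 times in Meis1-OE EC and 32, 122 and 144 times in YFP-CTRL EC. This gave 1.86, 2.34 and 2.68 CPM in Meis1-OE EC and 0.942, 2.99 and 3.17 CPM in YFP-CTRL EC. The Meis1-OE libraries all lay inside the YFP-CTRL range, which was set by the low value of library A. The log2FC was -0.05 (SE 0.43, edgeR adjusted p = 0.953), and its sign changed with the fit, from -0.77 when the proliferation score was a covariate to 0.19 without YFP-CTRL library C. Angpt2 lies inside Mcph1, with no exon shared between them in the annotation. Mcph1 was at 29.2 to 33.5 CPM in Meis1-OE EC and 20.7, 23.4 and 35.6 CPM in YFP-CTRL EC, with a log2FC of 0.22 (edgeR adjusted p = 0.550). Whether counting used strand is not given in the sources used here, and the part of Mcph1 reads in the Angpt2 count was not tested.

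Angptl2, on chromosome 2 at 33215951 to 33247725, was counted 52, 62 and 77 times in Meis1-OE EC and 1, 1 and 8 times in YFP-CTRL EC. In CPM these were 1.14, 1.37 and 1.66 against 0.0294, 0.0245 and 0.176. The lowest Meis1-OE library was 6.46-fold above the highest YFP-CTRL library. The log2FC was 4.05 (SE 0.59, edgeR adjusted p = 0.0120). Summed over libraries, 191 counts against 10 gave a depth-corrected ratio of 16.7 with an exact 95% interval of 8.89 to 35.4. This interval pools the libraries of each condition and leaves out the spread between them. Of the 10 control counts, 8 were in library C. Its level with Meis1 was still low.

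The size of the Angptl2 difference turned on the control libraries. Its constant direction is no separate check, because Angptl2 entered the test through its Meis1-OE libraries alone. Without YFP-CTRL library C, which held 8 of its 10 control counts, the log2FC was 5.54 (edgeR adjusted p = 0.000999), and when the proliferation score was a covariate it was 2.99 (edgeR adjusted p = 0.0296). Without Meis1-OE library B or C or YFP-CTRL library B the adjusted p was 0.0700, 0.0669 and 0.0565 from edgeR, and the log2FC was 4.07, 3.90 and 3.63. Angptl2 lies inside Ralgps1 with no exon shared between them. Ralgps1 was at 3.35 to 3.89 CPM in Meis1-OE EC and 3.41 to 5.18 CPM in YFP-CTRL EC, a log2FC of -0.25 (edgeR adjusted p = 0.491). The part of Ralgps1 reads in the Angptl2 count was not tested.

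Because Angptl2 and Angpt1 are made by mesenchymal cells in many tissues, markers of such cells were read in the same libraries. Of 12 mural and fibroblast markers, 3 were at or under 3 counts in every library and Lum was at 0 in all. The summed level was 16.3 to 17.9 CPM in Meis1-OE EC and 35.0 to 54.4 CPM in YFP-CTRL EC. Most of that sum was Pdgfra, at 11.7 to 11.9 CPM in Meis1-OE EC and 33.3, 49.1 and 15.6 CPM in YFP-CTRL EC, and Acta2 in YFP-CTRL library C. The other counted markers went both ways. Higher on average in Meis1-OE EC were Cspg4, Myh11, Dcn and the pericyte markers Pdgfrb (log2FC 0.55, edgeR adjusted p = 0.344) and Rgs5. Rgs5 had 2, 2 and 3 counts against 0 in all YFP-CTRL libraries. Tagln, Col1a1, Col1a2 and Col3a1 were lower on average, at 0.0437, 0.0585, 0.0220 and 0.0724 CPM against 0.298, 0.149, 0.0954 and 0.118 CPM. Of the 12 markers, only Pdgfrb, Pdgfra and Acta2 had enough counts to be tested. Pdgfra had a log2FC of -1.47 (edgeR adjusted p = 0.0598) and Acta2 one of -1.96 (edgeR adjusted p = 0.359), so none passed. YFP-CTRL library C, the control with 8 Angptl2 counts, held the most Acta2, at 19.9 CPM against 0.206 to 3.33 CPM in the other libraries. The part of these cells in the Angptl2 counts was not tested. Of 9 macrophage markers, Adgre1, C1qa, C1qb and Tyrobp were at 0 in all libraries. The summed level, mostly Cd68, was 69.8 to 106 CPM in Meis1-OE EC and 65.1 to 140 CPM in YFP-CTRL EC. Csf1r had 15, 26 and 18 counts in Meis1-OE EC and 1, 4 and 12 in YFP-CTRL EC (log2FC 1.63, edgeR adjusted p = 0.148). Lyz2 had 6, 40 and 37 counts against 8, 8 and 7 (log2FC 1.63, edgeR adjusted p = 0.181). Cd68 had a log2FC of -0.23 (edgeR adjusted p = 0.653). Ptprc and Fcer1g, with at most 4 counts in a library, were lower on average. Among 4 lymphatic markers, Pdpn was at 0 and Prox1 had at most 2 counts. The summed level was 178 to 187 CPM in Meis1-OE EC and 280 to 558 CPM in YFP-CTRL EC. The lower sum came from Lyve1, at 76.1 to 84.1 CPM in Meis1-OE EC and 161 to 461 CPM in YFP-CTRL EC. Flt4 was at 100 to 106 CPM in Meis1-OE EC and 50.3, 97.1 and 151 CPM in YFP-CTRL EC (log2FC 0.05, edgeR adjusted p = 0.948). All 10 endothelial markers were counted in every library, with a summed level of 3337 to 4107 CPM in Meis1-OE EC and 4166 to 5874 CPM in YFP-CTRL EC. The lower sum in Meis1-OE EC came mainly from Cdh5 (1182 to 1452 against 1784 to 2628 CPM) and Kdr. The median log2FC of the list was 0.10. Of its 10 genes, edgeR called 2 higher and 0 lower, beside 4.14% and 2.73% of all genes. DESeq2 called Kdr and Cdh5 lower (adjusted p = 0.00134 and 0.00950), beside 6.14% of the genes to which it gave an adjusted p. The part of these marker levels in the Tek result was not tested.

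Angptl4, on chromosome 17 at 33774900 to 33781575, was at 2.67, 1.59 and 1.27 CPM in Meis1-OE EC and 0.795, 1.59 and 2.29 CPM in YFP-CTRL EC. The conditions overlapped widely, and the libraries of each condition spread more than the difference between the means. Its log2FC was 0.23 (SE 0.44, edgeR adjusted p = 0.781), and it was -0.40 when the proliferation score was a covariate.

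Levels of different genes were compared per kilobase of exon. In YFP-CTRL EC the order was Tie1 (97.3 ± 13.5 CPM per kb), Ptprb (32.8 ± 3.45), Tek (16.6 ± 2.55), Angpt2 (0.642 ± 0.335), Angptl4 (0.474 ± 0.227) and Angptl2 (0.0122 ± 0.0137), as means ± SD of 3 libraries. In Meis1-OE EC the same order held, from 103 ± 17.0 CPM per kb for Tie1 through 28.3 ± 1.68 for Ptprb and 9.66 ± 1.36 for Tek to 0.221 ± 0.0419 for Angptl2. Angpt2 and Angptl4 were neighbours whose libraries overlapped in both conditions, at 0.621 ± 0.111 and 0.561 ± 0.223 CPM per kb in Meis1-OE EC. The receptors and the phosphatase were at least an order of magnitude above every ligand-like gene in each library.

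**Figure D3:**
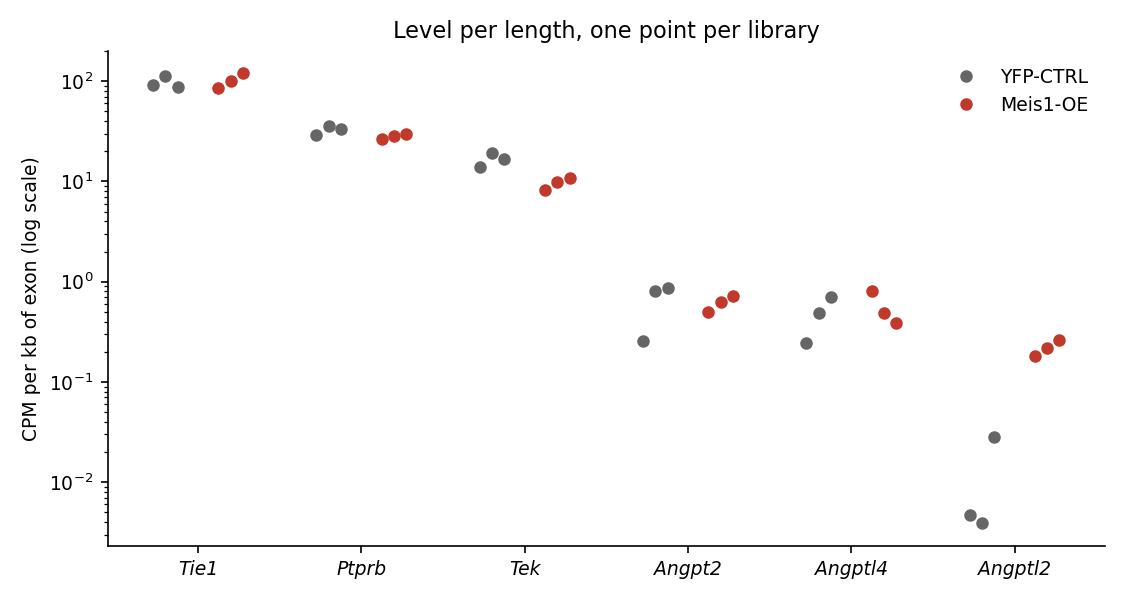
CPM per kilobase of exon (y axis, log scale) of the 6 tested genes, one point for each YFP-CTRL (grey) and Meis1-OE (red) library. Tie1, Ptprb and Tek form an upper group, Angpt2 and Angptl4 overlap with each other, and Angptl2 is lowest in YFP-CTRL EC and approaches them in Meis1-OE EC.

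**Figure D4:**
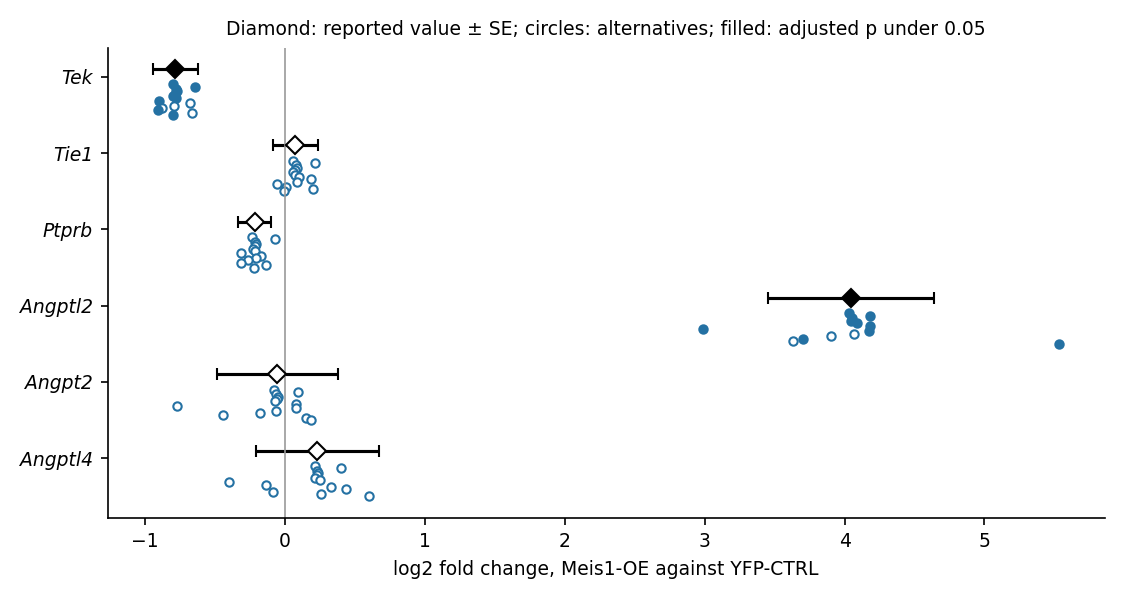
Log2 fold change (x axis) of each tested gene as reported (diamond, ± SE) and under the alternative fits (circles), filled where the adjusted p is under 0.05. Circles for Tek, Angptl2 and Ptprb stay on one side of 0, with none filled for Ptprb, while those of Tie1, Angpt2 and Angptl4 fall on both sides.

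Other genes of the pathway were taken from 5 lists with 53 genes, of which 40 could be tested. Of these 40, edgeR called 1 higher and 0 lower, beside 4.14% and 2.73% of all genes, with a median log2FC of 0.03 beside 0.01 over all genes tested. With no adjustment, 6 had a p under 0.05 upward and 7 downward, beside 26.2% of all genes in either direction, and DESeq2 called 3 higher and 4 lower at an adjusted p under 0.05, beside 6.21% and 6.14% of the genes to which it gave one. Among 7 further ligands and relatives, only Angptl6 was tested. Angptl6 was at 1.32 to 1.51 CPM in Meis1-OE EC and at 10.3, 8.77 and 0.902 CPM in YFP-CTRL EC, so that library C stood apart from the other controls. Its log2FC was -2.23 (adjusted p = 0.119 by edgeR and 0.00674 by DESeq2), and -2.76 without YFP-CTRL library C (edgeR adjusted p = 0.000451). Without that library edgeR called 2717 genes higher and 2498 lower over the whole table, against 665 and 438 with all libraries.

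Among 10 receptor partners and shedding genes, 9 were tested and 0 passed. Kdr, the main VEGF receptor of EC, was at 261 to 367 CPM in Meis1-OE EC and 457 to 1042 CPM in YFP-CTRL EC (log2FC -1.23, adjusted p = 0.0504 by edgeR and 0.00134 by DESeq2). Cdh5, which encodes the VE-cadherin that associates with VE-PTP, was at -0.70 (adjusted p = 0.0535 by edgeR and 0.00950 by DESeq2). The integrin genes Itga5, Itgav, Itgb1, Itgb3 and Itgb5 had log2FCs from -0.40 to 0.48, and Pirb, a receptor for Angptl2 in mouse, was at 0.176 to 0.442 CPM in all libraries. Of 10 tested adaptor and phosphatase genes, 0 passed, and the most positive value was that of Dok2, an adaptor of Tie2, at 1.53 (edgeR adjusted p = 0.200).

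Among 12 genes of PI3 kinase, Akt and Foxo, 1 passed. Pik3r1, a regulatory subunit of PI3 kinase, rose from 51.0, 61.5 and 57.8 CPM in YFP-CTRL EC to 72.4, 93.7 and 93.5 CPM in Meis1-OE EC. Its log2FC was 0.61 (SE 0.14, edgeR adjusted p = 0.0496), and it passed in 5 of 14 alternatives, with adjusted p-values between 0.0129 and 0.239. It did not pass without Meis1-OE library A, B or C (0.0607, 0.239 and 0.221 from edgeR) or without YFP-CTRL library A or B (0.0848 and 0.105 from edgeR). Foxo1, a transcription factor that Akt restrains and that drives Angpt2 in EC, was at 117 to 129 CPM in Meis1-OE EC and 131 to 278 CPM in YFP-CTRL EC (log2FC -0.75, adjusted p = 0.116 by edgeR and 0.0497 by DESeq2). Without YFP-CTRL library C, whose Foxo1 level was closest to the Meis1-OE libraries, its log2FC was -1.01 (edgeR adjusted p = 0.00285). That fit called 2717 genes higher and 2498 lower over the whole table, against 665 and 438 with all libraries.

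Of 8 tested lipase and PPAR genes around Angptl4, 0 passed. Cpt1a, which carries fatty acids into mitochondria and is a PPAR target as Angptl4 is, was at 160 to 171 CPM in Meis1-OE EC and 73.4 to 122 CPM in YFP-CTRL EC (log2FC 0.85, adjusted p = 0.0504 by edgeR and 0.00485 by DESeq2). Lpl, the enzyme that Angptl4 inhibits, was at 3.80 to 5.43 CPM in Meis1-OE EC and 2.97 to 5.12 CPM in YFP-CTRL EC, with a log2FC of 0.20 (edgeR adjusted p = 0.663).

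**Figure D5:**
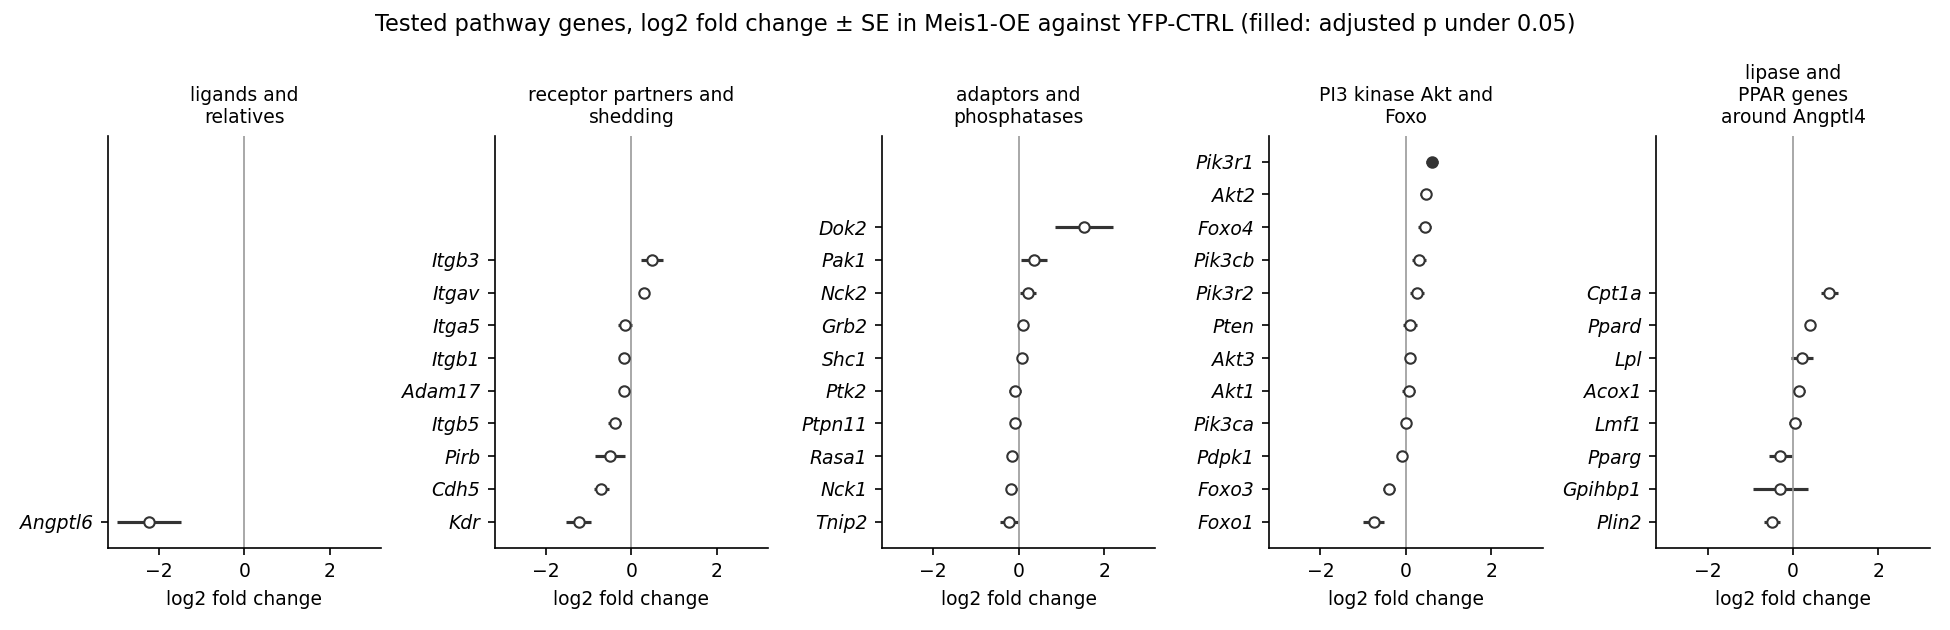
Log2 fold change ± SE (x axis) of the 40 tested genes of the 5 pathway lists, ordered by value within each list, filled where the adjusted p is under 0.05. Pik3r1 is the only filled point, and Angptl6 and Kdr have the most negative values.

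The genes whose log2 CPM followed each member most closely over the 6 libraries were found among genes with a mean of at least 5 CPM. These are descriptions over 6 libraries that differ in depth and condition, so r also holds the difference between the conditions. Tek was followed by Il27ra, Wwtr1 and Rpl36a-ps2 (Pearson r = 0.994, 0.993 and 0.992), the last of which is a pseudogene that can share reads with its parent gene. For Angptl2 they were Wdr19, Sertad4 and Mlec (0.999, 0.998 and 0.998), for Tie1 Sdhaf2, Elk4 and Sun1 (0.993, 0.990 and 0.975), and for Ptprb Lims1, Ubtd1 and Iffo2 (0.993, 0.991 and 0.990). Angpt2 was followed by Galnt1, Nav1 and Trip13 (0.998, 0.993 and 0.992), and Angptl4 by Dclre1b, Mgmt and Cplane1 (0.952, 0.948 and 0.943). Among all these followers, edgeR called Il27ra and Wwtr1 lower in Meis1-OE EC (adjusted p = 0.0454 and 0.0399). It called Wdr19, Sertad4 and Mlec higher (adjusted p = 0.0143, 0.0109 and 0.00969) and none of the others.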

How the data were processed

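Values deposited by the authors are estimated counts per gene symbol without normalization, from ribodepleted RNA-seq of 300 to 400 ng total RNA. The labels name build mm10, and the aligner, counter and annotation are not given in the sources used here. Counts were rounded to whole numbers. Conditions came from the labels. The replicates are described as independent, and columns carry letters that nothing ties to the replicate numbers, so libraries were not paired.

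The tests were run with edgeR 4.0.16 in R 4.3.3 (filterByExpr, TMM normalization, quasi-likelihood test) and DESeq2 1.42.0 as an alternative. Standard errors came from the F statistic. Exon lengths were from GENCODE on NCBIM37 and all 7 members had one, and positions and promoters were from RefSeq on GRCm38.p6, which held promoters for 3 of the 7. The programs were tested on simulated data.

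Named genes were the members, genes of fixed lists, and the 3 genes most correlated with each tested member. Members, lists and alternatives were chosen with earlier results of these data known. Alternatives were 3 of scaling and fit (DESeq2's size factors, library totals, a robust fit), 2 of filtering (none, or 10 counts or more per library), DESeq2, a replicate block, a proliferation covariate and each of 6 libraries left out.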

Additional observations from a re-analysis of the deposited data

How the results depend on the processing

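Angptl2 stayed positive and Tek negative in every alternative that gave a value, 13 for Angptl2, which could not be fitted with at least 10 counts in every library, and 14 for Tek. For Angptl2 this is a description only, because it entered the test through its Meis1-OE libraries alone. Leaving out single libraries gave log2 fold changes of -0.91 to -0.66 for Tek and 3.63 to 5.54 for Angptl2. The same gave -0.053 to 0.20 for Tie1, -0.44 to 0.19 for Angpt2 and -0.13 to 0.60 for Angptl4, none past the threshold. Angpt2 was positive on library totals (0.10) and with the column letter as a replicate block (0.081), and Angptl4 was negative with the proliferation covariate (-0.40). On library totals the median log2 fold change of all genes was 0.15. The counts of genes higher and lower over the whole table were 665 and 438, and 1048 and 179 on library totals and 1128 and 1115 with DESeq2. They ranged from 115 to 2717 and from 16 to 2498 without single libraries, lowest without Meis1-OE library B and highest without YFP-CTRL library C. The covariate left 393 higher. The replicate block left 189 lower. Correlations of deviations between libraries of the same letter were 0.26, 0.11 and 0.061. YFP-CTRL libraries A and C correlated best with the Meis1-OE library of the same letter, and YFP-CTRL library B with Meis1-OE library C. The letters were not taken as pairs, because nothing ties them to the replicate numbers. The block changed no call of a member. Of the pathway genes, 1 was higher and 0 were lower. The count higher was 0 with DESeq2's size factors, the block or the covariate, 4 on library totals (Pik3r1, Ppard, Cpt1a and Akt2), 3 with DESeq2 (Pik3r1, Cpt1a and Akt2) and 0 to 7 without single libraries. The count lower was 1 without a filter (Kdr), 4 with DESeq2 (Kdr, Cdh5, Foxo1 and Angptl6) and 0 to 8 without single libraries, and 7 and 8 were reached without YFP-CTRL library C. The causes were not tested. Angpt1 and the controls of Angptl2 are limited by depth.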

Other observations

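Among the other endothelial genes, Vwf and Cldn5 rose and Lyve1 fell in Meis1-OE EC. Vwf, the clotting factor stored in EC together with angiopoietin-2, was at 24.3, 77.6 and 87.1 CPM with Meis1 (A, B and C) and 8.13, 6.23 and 7.39 CPM in controls. The log2FC was 3.12 (edgeR adjusted p = 0.0120), and it did not pass without Meis1-OE library B or C or YFP-CTRL library B (adjusted p = 0.0626, 0.0555 and 0.0753 by edgeR). Cldn5, a tight junction protein, was at 163 to 245 CPM against 26.5 to 81.3 CPM (log2FC 1.81, adjusted p = 0.0398 by edgeR), and it did not pass without Meis1-OE library A, B or C or YFP-CTRL library B (0.0944, 0.153, 0.160 and 0.130). Lyve1, a hyaluronan receptor best known from lymphatic EC, was at 76.1 to 84.1 CPM against 161 to 461 CPM (log2FC -1.84, adjusted p = 0.0301 by edgeR), and it did not pass without Meis1-OE library A, B or C (0.121, 0.149 and 0.131). With the proliferation covariate the adjusted p from edgeR was 0.0510 for Vwf, 0.106 for Cldn5 and 0.131 for Lyve1. The other 8 of the 10 endothelial markers did not pass by edgeR, though DESeq2 called Kdr and Cdh5 lower.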
